A study of Mus musculus with 6 samples.

Results

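The genes described here are the 85 rows, of 4656 in the deposited table, whose KEGG pathway annotation names the cell cycle or DNA replication. The selection rule excepts Cdkn1a and Bbc3, and this left out 1 further annotated row. Of the 85, 69 carried the cell cycle annotation, 23 carried DNA replication and 7 carried both. They were sorted by role into 12 genes of replication licensing and origin firing, 17 of polymerases and the replication fork, 16 cyclins, kinases and their regulators, 20 mitotic genes, and 20 genes of checkpoints, the E2F and RB proteins and signalling.

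Messenger RNA was sequenced from primary microglia, macrophages that live in the brain, of adult mice. The control group (Ctrl, 3 libraries) had the genotype Nus1fl/fl, in which Cre target sites flank a part of Nus1, and the other group (cKO, 3 libraries) had the conditional knockout genotype Nus1cKO. The Nus1 protein is part of cis-prenyltransferase, which builds the lipid chain of dolichol, and dolichol carries the sugars added to proteins in N-glycosylation. Tamoxifen, which switches on inducible forms of Cre, was injected intraperitoneally at 100 mg/kg on 5 days starting at postnatal day 28, per the labels' protocols. Brains were collected 30 days after the last dose, and microglia were sorted by flow cytometry. A culture step with serum is described too, and it is left unsaid if RNA came from cultured or freshly sorted cells. Also not given in the sources used here were the Cre driver, the sex of the mice and whether Ctrl mice carried Cre.

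All rows carry q-values below 0.05 from the authors' comparison of these 6 libraries. The members are therefore those pathway genes that had already been called, and the level and change of a pathway gene without a row are unknown here. Reads in the deposited rows summed to between 10786150 and 11033144 per library, which covers only these genes and is not the depth of a library. Libraries of a group lay close together, with a mean squared difference of 1.31 to 2.18 times that of pure counting noise, against 47.7 to 52.6 times between groups. Replicates are labelled biological, but no label names the mouse or pool behind a library, and p-values therefore reflect only the spread between these samples, which may be technical. Nus1 itself had 59.8 ± 0.902 TPM (a level per transcript length, scaled to the same total in each library) in Ctrl and 13.9 ± 0.252 TPM in cKO (SD, n = 3).

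A cell that divides loads the MCM2-7 helicase onto origins through the origin recognition complex, fires those origins with kinases and accessory factors, and copies DNA with polymerases held on the template by the PCNA clamp. Cyclin-dependent kinases drive the order of these steps, and RB proteins restrain the E2F factors that switch on many of the genes involved. Mitosis then ends when the anaphase-promoting complex, activated by Cdc20, marks cyclin B and securin for destruction. Adult microglia in the healthy brain divide rarely, and divide more after injury.

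Promoters of Cdc20, Mcm6 and Pcna, which mark the mitotic, licensing and fork genes, and of Cdc45, a helicase factor that went the other way, are given for the 250 bases before the annotated start, from RefSeq on GRCm38.p6, on the strand of the gene. All of them lie on the minus strand of their chromosomes. Capitals mark matches on either strand to an E2F-type motif (TTTCCCGC, TTTCGCGC, TTTGCCGC or TTTGGCGC), a CHR-type motif (TTTGAA or TTCGAA) or a CCAAT box, and neighbouring matches can overlap.
Cdc20, chr4:118437344-118437593: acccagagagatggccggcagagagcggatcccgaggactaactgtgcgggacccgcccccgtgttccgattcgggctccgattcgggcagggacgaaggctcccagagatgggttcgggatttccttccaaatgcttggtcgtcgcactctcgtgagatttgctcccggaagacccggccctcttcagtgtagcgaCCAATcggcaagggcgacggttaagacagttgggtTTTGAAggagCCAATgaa
Mcm6, chr1:128359706-128359955: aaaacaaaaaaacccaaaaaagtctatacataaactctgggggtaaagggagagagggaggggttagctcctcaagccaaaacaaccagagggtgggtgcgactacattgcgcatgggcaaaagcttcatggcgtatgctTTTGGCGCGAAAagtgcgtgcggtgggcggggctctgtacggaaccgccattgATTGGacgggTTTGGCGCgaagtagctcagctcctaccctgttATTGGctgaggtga
Pcna, chr2:132253181-132253430: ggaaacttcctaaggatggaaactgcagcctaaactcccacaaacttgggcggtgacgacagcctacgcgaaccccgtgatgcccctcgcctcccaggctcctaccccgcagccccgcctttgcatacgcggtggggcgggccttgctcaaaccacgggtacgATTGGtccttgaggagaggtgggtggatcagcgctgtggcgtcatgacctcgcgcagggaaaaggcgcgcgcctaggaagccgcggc
Cdc45, chr16:18811973-18812222: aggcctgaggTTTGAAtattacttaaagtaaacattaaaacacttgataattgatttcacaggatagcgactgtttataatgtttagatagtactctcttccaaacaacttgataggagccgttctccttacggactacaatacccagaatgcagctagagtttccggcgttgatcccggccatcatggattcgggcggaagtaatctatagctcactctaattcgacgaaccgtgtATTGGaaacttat
The Cdc20 window holds a CHR-type match 18 bases before the start and CCAAT boxes at 53 and 8 bases. The Mcm6 window holds 3 E2F-type matches, of which 2 overlap at 110 and 106 bases, and 2 CCAAT boxes. The Pcna window holds 1 CCAAT box and the Cdc45 window holds 1 CHR-type match and 1 CCAAT box.

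Most members were slightly lower in cKO. Of the 85, 73 fell, 10 rose and 2 did not pass (edgeR quasi-likelihood test, adjusted p under 0.05 over all genes the authors tested). The same test called 96.7% of all tested rows, 50.2% as lower and 46.4% as higher, so that passing it says nothing particular about the members; 85.9% of the members were called lower. Their median log2 fold change, cKO over Ctrl, was -0.17, beside -0.08 over all tested rows. Both medians moved with the scaling, to -0.14 beside -0.04 with RLE and with DESeq2, to -0.13 beside -0.03 with upper-quartile scaling and to -0.22 beside -0.12 with the authors' size factors. The median was -0.20 among the 73 members that fell, beside -0.21 among all rows called lower. Only Gadd45a reached an absolute log2 fold change of 1, which 4.96% of all tested rows reached. No member's TPM values overlapped between the groups: 75 were lower in every cKO library and 10 were higher, while among all rows 51.5% were lower and 46.1% higher without overlap. A two-sided exact permutation test of 3 against 3 libraries gave p = 0.1 for each member, the smallest this design allows.

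The share of all transcripts taken by the members was smaller in cKO. Summed over the 85 genes, TPM came to 9123, 9151 and 9184 in Ctrl and to 8009, 8134 and 7997 in cKO, a change of -12.1% in the mean. All cKO libraries were below all Ctrl libraries. Fewer dividing cells and less of these RNAs per cell cannot be told apart in bulk libraries. By role, the change of the sum was -14.4% for cyclins, kinases and regulators, -13.6% for polymerases and fork genes and -12.6% for licensing genes. It was -10.8% for mitotic genes and -10.4% for the checkpoint and signalling group. Differences between the role groups were not tested. Such sums follow the most abundant genes. In Ctrl, Pcna made up 684 of the 1932 TPM of the fork genes, and Ywhae 648 of the 2786 TPM of the checkpoint and signalling group. The median level of the members in Ctrl was 76.6 TPM, beside 38.0 TPM over all rows.

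**Figure D1:**
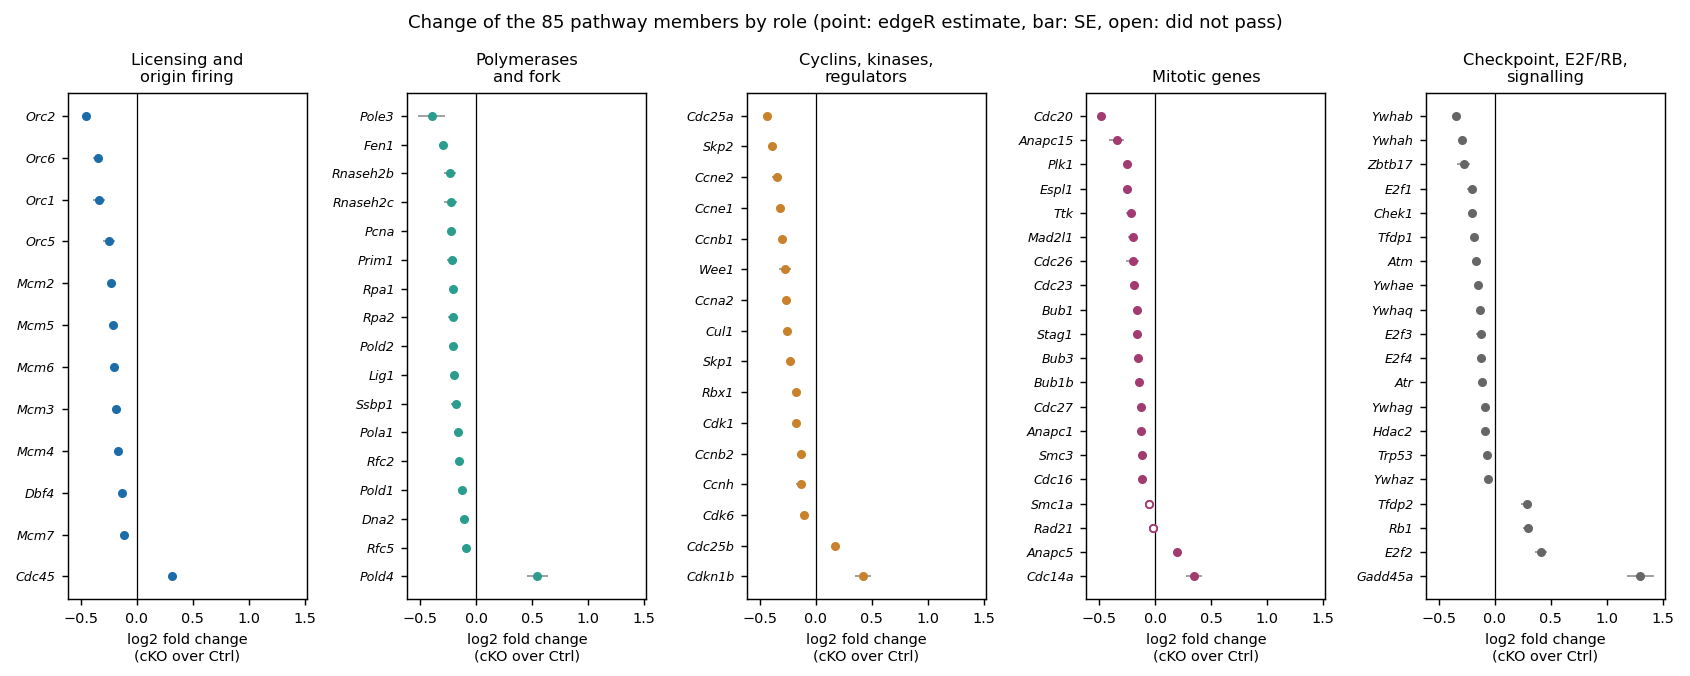
Log2 fold change (cKO over Ctrl, x axis) of each of the 85 members in 5 panels by role; points are edgeR estimates, bars are SE and open points are the 2 members that did not pass. Nearly all points lie left of 0, between -0.48 for Cdc20 and -0.02 for Rad21, and the 10 right of 0 are spread over all panels.

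Licensing genes fell except for Cdc45. Of 12 members 11 fell and 1 rose; the median was -0.21 (log2) and values ran from -0.45 to 0.32. Subunits of the origin recognition complex, which marks origins and recruits the helicase, had the larger decreases. Orc2 (ENSMUSG00000026037) had 99.8, 100.2 and 98.3 TPM in Ctrl and 71.9, 71.4 and 72.1 TPM in cKO. Every cKO library was well below every Ctrl library, and the log2 fold change was -0.45 ± 0.03 (SE, edgeR adjusted p = 2.8e-17). Orc6 fell by 0.35, Orc1 by 0.34 and Orc5 by 0.25 on the log2 scale. The summed TPM of these 4 subunits was 240 ± 3.85 in Ctrl and 183 ± 1.10 in cKO (SD, n = 3), a change of -23.7%, while Orc3 and Orc4 had no row.

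All 6 subunits of the MCM2-7 helicase ring fell, by 0.11 to 0.23 on the log2 scale. Mcm6 (ENSMUSG00000026355, chromosome 1, 128259312 to 128287442, minus strand, mm39) had 261, 260.4 and 262 TPM in Ctrl and 220.2, 229 and 223 TPM in cKO. The groups were clearly apart, with a log2 fold change of -0.20 ± 0.02 (SE, edgeR adjusted p = 2.0e-10). The other subunits fell by 0.23 (Mcm2), 0.21 (Mcm5), 0.19 (Mcm3), 0.16 (Mcm4) and 0.11 (Mcm7) on the log2 scale. Mcm7 was no longer called under upper-quartile scaling (-0.06, adjusted p = 0.0628) or DESeq2 (-0.08, adjusted p = 0.0975). Summed over the ring, TPM was 998 ± 9.14 in Ctrl and 868 ± 18.8 in cKO (SD, n = 3). Dbf4, the activating subunit of the kinase that triggers the loaded ring, fell by 0.13, which ended as a call with DESeq2 (adjusted p = 0.114).

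Cdc45, which joins MCM2-7 and the GINS complex to form the active helicase, rose. It had 77, 78.3 and 74.4 TPM in Ctrl and 94, 95.1 and 94.3 TPM in cKO, with all cKO libraries higher (log2 fold change 0.32 ± 0.03, SE, edgeR adjusted p = 1.3e-10). Its partners Gins1, Gins2 and Gins3, which had rows without the pathway annotation, fell by 0.27, 0.25 and 0.27. Among the other licensing and origin-firing genes outside the annotation, Recql4 (0.30) and Mtbp (0.25) also rose. Wdhd1 (-0.26), Gmnn (-0.15), Donson (-0.15) and Topbp1 (-0.07) fell. In the GENCODE M21 annotation of GRCm38, an exon of Cdc45 overlaps one of Ufd1 on the opposite strand by 164 bases and one of Orc2 overlaps Nif3l1 by 686 bases. Strand use in read counting is not stated in the sources used here, so reads from such partners cannot be told apart. Over the whole licensing list of 30 genes, which includes genes without the annotation, 21 had rows, of which 18 fell and 3 rose.

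Genes of the replication fork fell as well, again with 1 exception. Of 17 members 16 fell and 1 rose, with a median of -0.21. Pcna (ENSMUSG00000027342), the sliding clamp that tethers polymerases, was the most abundant member at 674, 678 and 701 TPM in Ctrl and 581, 580.4 and 578 TPM in cKO. The cKO values lay close together and far below the Ctrl values, and the log2 fold change was -0.23 ± 0.02 (SE, edgeR adjusted p = 3.1e-11). Pcna has 2 annotated pseudogenes by name, with which it may share reads. The flap endonuclease Fen1, which trims Okazaki fragments, had 107, 102 and 106 TPM in Ctrl and 80.7, 88 and 84 TPM in cKO. An antisense gene, Gm10143, overlaps an exon of Fen1 by 1909 bases, the longest such overlap of any member. Fen1 fell by 0.30 ± 0.03 (SE), and Lig1, the ligase that seals the trimmed fragments, by 0.20.

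Polymerase subunits went in both directions. Pola1 and Prim1, of the polymerase that lays down primers, fell by 0.16 and 0.22. Pold2 and Pold1, the accessory and catalytic subunits of polymerase delta, fell by 0.21 and 0.13. Its small subunit Pold4 rose instead, from 24.1, 22.7 and 25.4 TPM in Ctrl to 37, 34.6 and 33.3 TPM in cKO. All cKO libraries were higher (log2 fold change 0.55 ± 0.09, SE, edgeR adjusted p = 4.5e-06), on an average of 194 reads per library. An exon of Pold4 overlaps another annotated protein-coding gene on the same strand by 112 bases. Pole3, a histone-fold subunit of polymerase epsilon, had 37.7, 45.9 and 45.5 TPM in Ctrl and 32.5, 32.6 and 32.7 TPM in cKO. Ctrl replicate 1 was lower than the other Ctrl libraries, and the decrease of 0.40 ± 0.12 (SE, adjusted p = 0.0085) ended as a call without Ctrl replicate 3 (-0.33, adjusted p = 0.0785) and with DESeq2 (adjusted p = 0.118). The decrease of Pold1 ended with RLE (adjusted p = 0.0764), upper-quartile scaling (adjusted p = 0.142) and DESeq2 (adjusted p = 0.299).

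The single-strand binding proteins Rpa1 and Rpa2, which coat unwound DNA, each fell by 0.21, and the mitochondrial counterpart Ssbp1 by 0.18. Of the clamp loader subunits, Rfc2 fell by 0.15 and Rfc5 by 0.09, and the nuclease Dna2, which acts with Fen1, by 0.10. In edgeR fits without 1 library the call of Rfc5 ended for Ctrl replicate 1 (adjusted p = 0.0634), Ctrl replicate 2 (0.153), cKO replicate 1 (0.104) and cKO replicate 2 (0.0694), and that of Dna2 for Ctrl replicate 2 (0.115), Ctrl replicate 3 (0.0721), cKO replicate 1 (0.0582) and cKO replicate 3 (0.0667). Subunits of ribonuclease H2, which removes ribonucleotides from DNA, fell by 0.23 each (Rnaseh2b and Rnaseh2c). Rnaseh2c shares 426 bases of exon with Kat5 on the opposite strand, Rfc2 952 with Lat2 and Rfc5 499 with Wsb2. Under DESeq2 the calls of Rnaseh2c (adjusted p = 0.0688), Ssbp1 (adjusted p = 0.0827) and Rfc2 (adjusted p = 0.101) ended. Of 31 genes listed for polymerases and the fork 17 had rows, all of them members, and the catalytic subunit of polymerase epsilon (Pole) had none.

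**Figure D2:**
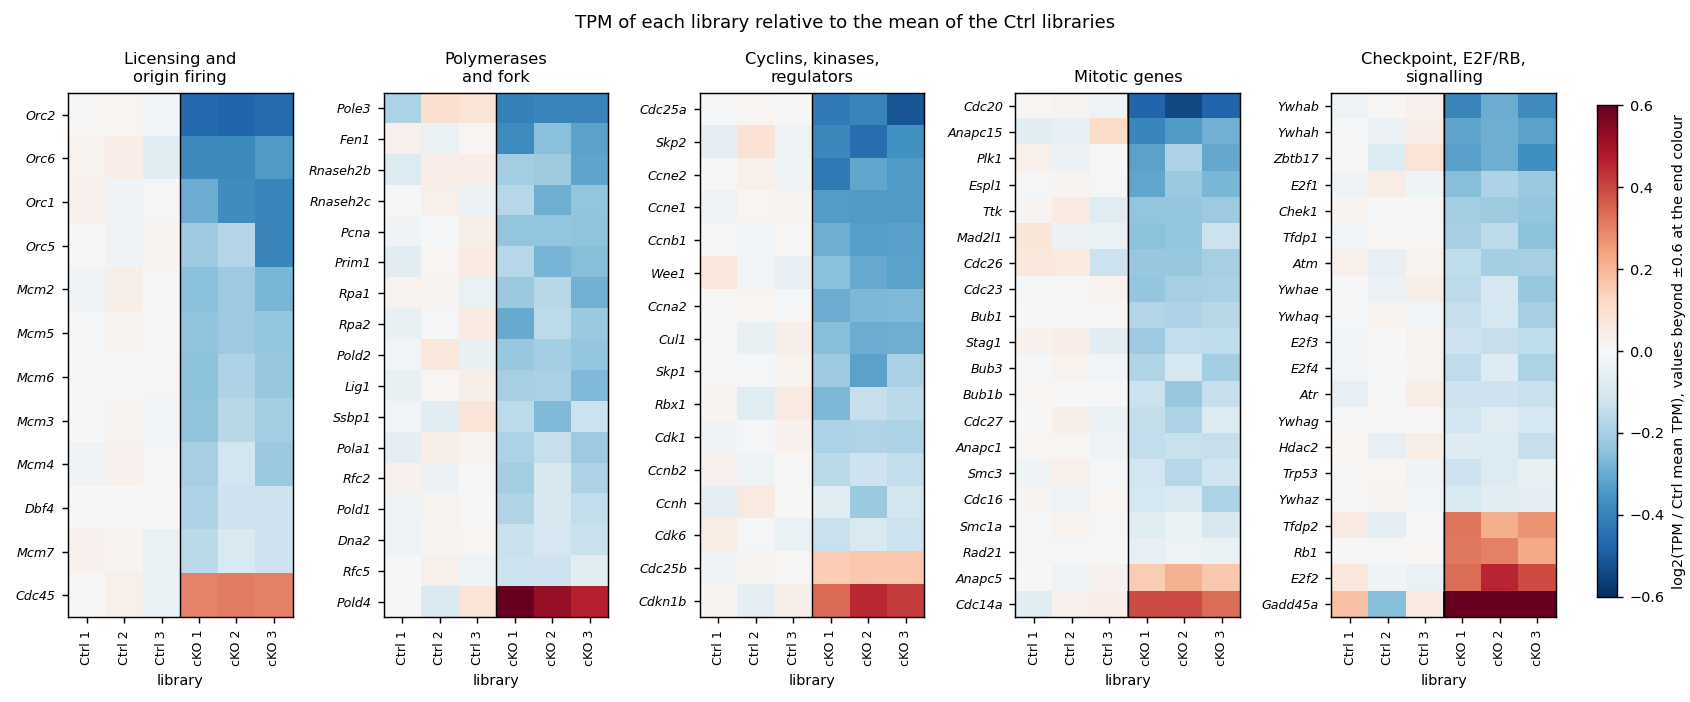
Level of each member (rows, by role) in each of the 6 libraries (columns), as log2 of its TPM over the mean TPM of the Ctrl libraries, blue for lower and red for higher. The 3 cKO columns are blue for 75 members and red for 10, as the groups did not overlap for any member.

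Among cyclins, kinases and regulators 14 of 16 members fell and 2 rose, with a median of -0.24. The phosphatase Cdc25a, which activates CDK2 and CDK1 by removing inhibitory phosphates, had 42.1, 42.8 and 42.6 TPM in Ctrl and 31.7, 32.3 and 29.8 TPM in cKO. The groups were far apart (log2 fold change -0.44 ± 0.04, SE, edgeR adjusted p = 6.6e-13). Its paralog Cdc25b, which acts at entry into mitosis, moved the other way, from 70.2, 72 and 71.5 TPM to 79, 79.7 and 79.5 TPM (0.17 ± 0.03, SE, edgeR adjusted p = 3.6e-06). Both E-type cyclins, which drive entry into S phase, fell, Ccne2 by 0.34 and Ccne1 by 0.32. Ccne2 shares 474 bases of exon with Ints8 on the opposite strand, and Ccna2 shares 428 with Exosc9.

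Cyclins of later phases fell as well. Ccnb1, the main mitotic cyclin, had 209, 205 and 209 TPM in Ctrl and 169.6, 165 and 165 TPM in cKO, with a log2 fold change of -0.30 ± 0.02 (SE, edgeR adjusted p = 1.3e-13). Ccnb1, Ccnb2 and Rbx1 each have 1 annotated pseudogene by name. The other B-type cyclin Ccnb2 fell by 0.13, cyclin A2 (Ccna2) by 0.26 and their kinase Cdk1 by 0.17. The inhibitory kinase Wee1, which opposes Cdc25 phosphatases, also fell, by 0.28. The decrease of Ccnb2 ended as a call with DESeq2 (adjusted p = 0.0976). None of the D-type cyclins, Cdk2 or Cdk4 had a row, while Cdk6, a kinase partner of D-type cyclins, fell by 0.10 and Ccnh, the cyclin of the CDK-activating kinase, by 0.13. In edgeR fits without 1 library the call of Cdk6 ended for Ctrl replicate 1 (adjusted p = 0.161), Ctrl replicate 2 (0.0519) and cKO replicate 1 (0.055), and that of Ccnh for Ctrl replicate 2 (0.15), Ctrl replicate 3 (0.064) and cKO replicate 2 (0.207).

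RNA of the CDK inhibitor p27 (Cdkn1b) rose, while RNAs of all 4 subunits of the ubiquitin ligase that targets p27 protein fell. Protein was not measured, and a link between these changes was not tested. Cdkn1b had 10.9, 10.4 and 11.1 TPM in Ctrl and 13.7, 14.8 and 14.5 TPM in cKO (log2 fold change 0.42 ± 0.07, SE, edgeR adjusted p = 7.9e-06). Skp2, the F-box protein that recognises p27, had 38.9, 43.1 and 39.6 TPM in Ctrl and 31, 29.5 and 31.6 TPM in cKO. It fell by 0.39 ± 0.04 (SE, edgeR adjusted p = 1.1e-09), and the core subunits Cul1, Skp1 and Rbx1 by 0.26, 0.23 and 0.17. Those core subunits serve many other F-box proteins. Summed TPM of these 4 subunits was 527 ± 7.66 in Ctrl and 444 ± 13.3 in cKO (SD, n = 3), a change of -15.9%. Skp1 alone had 342 TPM in Ctrl, so the sum mainly follows Skp1 and does not measure the amount of ligase.

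Mitotic genes had a median of -0.15, with Cdc20 as the largest decrease among all 85 members. Of 20 members 16 fell, 2 rose and 2 did not pass. Cdc20 (ENSMUSG00000006398, chromosome 4, 118290098 to 118294540, minus strand, mm39) had 213, 214 and 207 TPM in Ctrl and 152, 145 and 152 TPM in cKO. All cKO libraries were lower, with a log2 fold change of -0.48 ± 0.03 (SE, edgeR adjusted p = 2.6e-17) that ranged from -0.53 to -0.44 over all alternatives. An exon of Cdc20 overlaps Elovl1 on the opposite strand by 53 bases. The mitotic kinase Plk1 had 123, 117 and 120.2 TPM in Ctrl and 96, 105 and 97 TPM in cKO and fell by 0.26 ± 0.03. Separase (Espl1), the protease that cuts cohesin at anaphase, fell by 0.25.

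Subunits of the anaphase-promoting complex had smaller log2 fold changes than its activator Cdc20, in both directions. Of 14 listed subunits 7 had rows, of which 6 fell and 1 rose, with a median of -0.13, and their summed TPM was 391 ± 3.56 in Ctrl and 377 ± 4.35 in cKO (SD, n = 3). The largest decrease was that of Anapc15, at -0.34 ± 0.07 (SE); it shares 1430 bases of exon with Tomt on the opposite strand and has an annotated pseudogene. The scaffold subunit Anapc5 rose by 0.19 ± 0.02 (SE, edgeR adjusted p = 1.5e-08), from 133, 129.8 and 135 TPM to 147, 154 and 148 TPM. Cdc26 fell by 0.20, Cdc23 by 0.19, Cdc27 by 0.13, Anapc1 by 0.12 and Cdc16 by 0.11. Cdc23 shares 977 bases of exon with Kif20a on the opposite strand. The call of Cdc27 ended with upper-quartile scaling (adjusted p = 0.0711) and DESeq2 (0.134). In edgeR fits without 1 library the call of Cdc26 ended for Ctrl replicate 1 (adjusted p = 0.0563) and Ctrl replicate 2 (0.0551), and that of Cdc16 for Ctrl replicate 1 (0.0948), Ctrl replicate 3 (0.0837) and cKO replicate 3 (0.215).

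Spindle checkpoint genes, which hold anaphase until chromosomes are attached, fell. Of 6 listed, 5 had rows and each of these fell, Ttk by 0.22, Mad2l1 by 0.20, Bub1 by 0.16 and Bub3 and Bub1b by 0.15 each. Cohesin, which holds sister chromatids together and also shapes chromatin in cells that do not divide, was mixed: Stag1 fell by 0.16 and Smc3 by 0.12, a call that ended with DESeq2 (adjusted p = 0.058), and the other 2 subunits with rows did not pass. Smc1a was at -0.05 ± 0.02 (SE, edgeR adjusted p = 0.103) and Rad21 at -0.02 ± 0.02 (SE, edgeR adjusted p = 0.917). Both were called lower with the authors' size factors (-0.10, adjusted p = 0.0012 for Smc1a, and -0.06, adjusted p = 0.0124 for Rad21), and Rad21 turned to 0.01 with RLE or DESeq2 and to 0.02 with upper-quartile scaling. Cdc14a, a phosphatase, rose by 0.35 ± 0.07 (SE, edgeR adjusted p = 0.00015) from a low level of 5.87, 6.26 and 6.32 TPM in Ctrl to 8.06, 8.06 and 7.76 TPM in cKO.

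Checkpoint, E2F and signalling genes were the most mixed group, with 16 of 20 members lower and 4 higher (median -0.13). Gadd45a, a stress-induced gene linked to growth arrest and DNA repair, changed most of all members. It had 8.12, 6.03 and 7.45 TPM in Ctrl and 16.3, 18.4 and 18.1 TPM in cKO, so that every cKO library was far above every Ctrl library. Its log2 fold change was 1.30 ± 0.12 (SE, edgeR adjusted p = 2.0e-11), a fold of 2.46, on an average of 124 reads per library. Other checkpoint genes fell by small amounts, the kinases Chek1 by 0.20, Atm by 0.17 and Atr by 0.11 and p53 (Trp53) by 0.07. The transcription factor Zbtb17 fell by 0.28 and the histone deacetylase Hdac2 by 0.08. In edgeR fits without 1 library the call of Trp53 ended for Ctrl replicate 1 (adjusted p = 0.0821), Ctrl replicate 2 (0.0992) and cKO replicate 1 (0.188), that of Atr for Ctrl replicate 3 (0.0763), and that of Hdac2 for Ctrl replicate 1 (0.135), Ctrl replicate 3 (0.265) and cKO replicate 3 (0.223).

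Paralogs of the E2F system moved in opposite directions. E2f1, an activator of S-phase genes, had 36.4, 38.1 and 36.2 TPM in Ctrl and 30.9, 32.5 and 31.6 TPM in cKO (log2 fold change -0.21 ± 0.04, SE, edgeR adjusted p = 1.0e-04). E2f2, another activator, rose from 12.7, 11.9 and 11.8 TPM to 15.3, 16.7 and 15.9 TPM (0.41 ± 0.05, SE, edgeR adjusted p = 1.3e-08). The dimerisation partner Tfdp1 fell by 0.19 from 143 ± 1.41 TPM, while Tfdp2 rose by 0.28 ± 0.05 (SE) from 9.24, 8.59 and 8.92 TPM to 11.1, 10.4 and 10.8 TPM. In both pairs the member that rose was the less abundant in Ctrl. Rb1, which restrains these factors, rose by 0.29 ± 0.04 (SE, edgeR adjusted p = 9.6e-07), from 14.6, 14.5 and 14.7 TPM to 18.2, 18 and 17.1 TPM; its exons overlap Rcbtb2 on the opposite strand by 383 bases. E2f3 fell by 0.13 and E2f4 by 0.12, calls that ended for both with upper-quartile scaling (adjusted p = 0.208 and 0.0947) and DESeq2 (0.398 and 0.195) and for E2f3 with RLE (0.116).

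The 14-3-3 adaptor genes, which bind phosphorylated proteins such as Cdc25 and have many roles outside the cell cycle, made up the most abundant part of this group. All 6 members of this family with a row fell. Ywhab had 289.5, 298 and 301 TPM in Ctrl and 225, 241 and 228 TPM in cKO (log2 fold change -0.34 ± 0.02, SE, edgeR adjusted p = 1.5e-15), and Ywhah fell by 0.30. Ywhae fell by 0.15, Ywhaq by 0.13, Ywhag by 0.08 and Ywhaz by 0.06. Ywhaq has 3 annotated pseudogenes by name. The call of Ywhag ended with RLE (adjusted p = 0.0963), upper-quartile scaling (0.28) and DESeq2 (0.19). In edgeR fits without 1 library that of Ywhaz ended for Ctrl replicate 1 (adjusted p = 0.085), Ctrl replicate 2 (0.223), cKO replicate 1 (0.121) and cKO replicate 2 (0.0626).

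**Figure D3:**
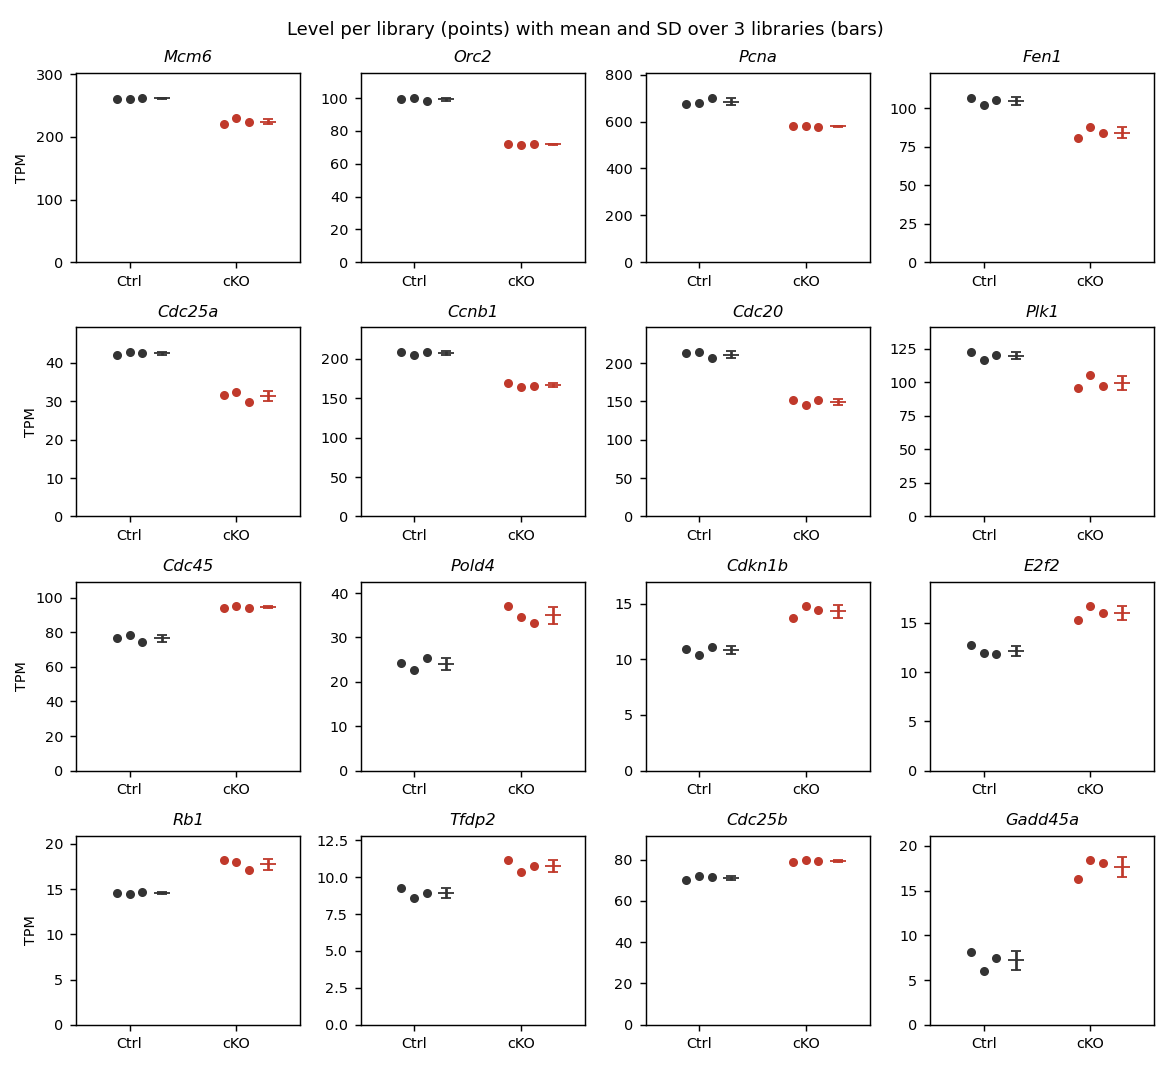
TPM (y axis, from 0) of 16 members in the 3 Ctrl (black) and 3 cKO (red) libraries, with mean and SD beside the points. The upper 8 genes were lower in every cKO library, such as Cdc20 at 145 to 152 against 207 to 214 TPM, and the lower 8 were higher, such as Gadd45a at 16.3 to 18.4 against 6.03 to 8.12 TPM.

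The members that rose ranged widely in level. Of the 10, Cdc14a, Gadd45a, Tfdp2, Cdkn1b, E2f2 and Rb1 were under 15 TPM in Ctrl, Pold4 was at 24.1 ± 1.38 TPM, and Cdc25b, Cdc45 and Anapc5 were at 71.2 ± 0.921, 76.6 ± 1.97 and 132 ± 2.47 TPM (SD, n = 3). Their median log2 fold change was 0.33, beside 0.37 among all rows called higher. All 10 held their call under each of the 17 alternatives run. Of the 73 that fell, 50 did so, and 11 lost their call when 1 library was left out; the remaining losses came with another scaling or test. All 11 also ended with DESeq2 and, apart from Pole3, with upper-quartile scaling. The number of members called lower was 50 with DESeq2, 57 with upper-quartile scaling and 61 with RLE, and 75 with the authors' size factors. Fewer rows were called lower over the whole table too, 1870 under RLE against 2332 under TMM. Among all calls, the share higher in cKO was 48.0% under TMM, but 53.5% under RLE, 55.5% under upper-quartile scaling and 58.9% under DESeq2. It was 46.4% under the authors' size factors. These counts therefore do not set the members apart from the other rows.

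**Figure D4:**
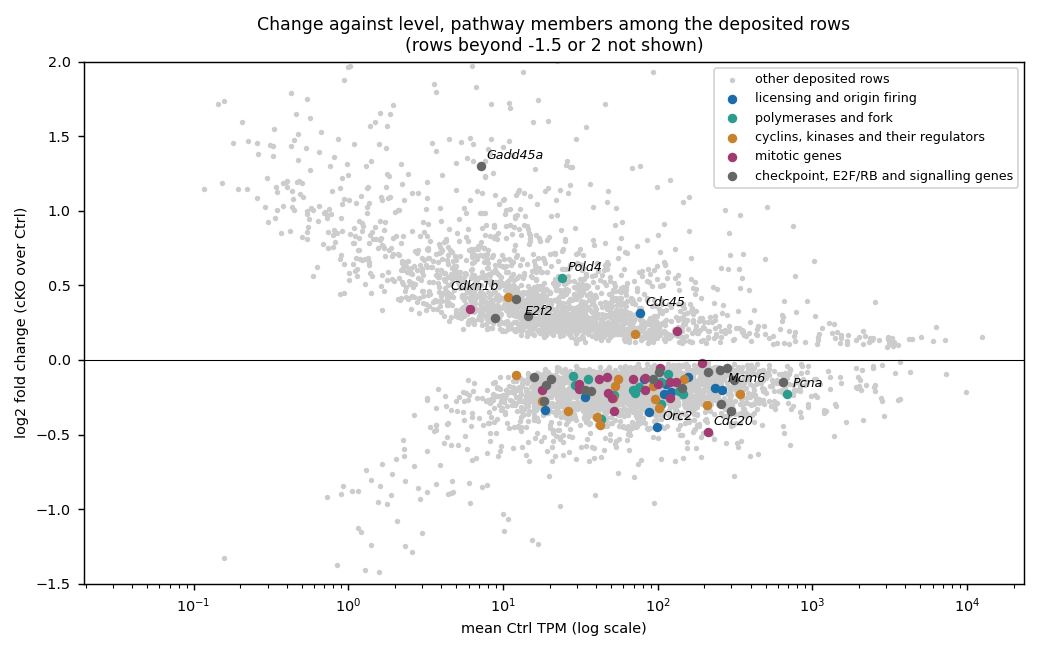
Log2 fold change (cKO over Ctrl, y axis) against mean Ctrl TPM (log scale, x axis) for the deposited rows in grey and the 85 members in colour by role. Rows beyond the limits of the y axis are not shown. The band near 0 with few rows comes from the selection of the table, which was made on the authors' scale. With the authors' size factors the median of all rows was -0.12, against -0.08 in the plotted fit, so the band need not centre on 0. Members lie mostly below the band, with Cdc20 at -0.48 the lowest of them and Gadd45a at 1.30 the highest.

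Proliferation genes outside the annotation moved the same way. Of 30 listed genes such as Mki67, the antigen of the Ki-67 stain, 27 had rows and every one of them fell; the median was -0.24 (log2) and the change of the summed TPM was -16.4%. The list was chosen with earlier results of these libraries known, so its direction is no independent evidence. The largest decreases were those of Mybl2 (-0.48), a factor that activates mitotic genes, and of Rrm2 (-0.44), the regulated subunit of ribonucleotide reductase. Among the others, Hells, a chromatin remodeller, was at -0.40, the cyclin F gene Ccnf at -0.34 and Tyms, which makes thymidylate, at -0.33. Mki67 had 102 ± 0.984 TPM in Ctrl and 86.3 ± 1.70 TPM in cKO (SD, n = 3) and was detected in every library. The 27 genes with rows had a median of 122 TPM in Ctrl, beside 38.0 TPM over all rows. How this level relates to the share of dividing cells or to the culture step was not tested.

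Promoters of 72 members were in the RefSeq table, and for 15 members with more than 1 entry the first was used. An E2F-type match lay in 11 of the 72 windows (15.3%), beside 1.91% of all 27025 promoters and 3.87% of those of the deposited rows. Licensing genes held 4 of these, in Mcm5, Mcm6, Mcm7 and Orc1. None of the 11 members with this match rose, while 9 of the 61 without it did, and the median log2 fold change was -0.17 with it and -0.18 without. As only 9 of the 72 rose in all, few increases would fall among 11 windows in any case, and this contrast was not tested. CCAAT boxes lay in 55.6% of the members' windows, beside 34.5% of all promoters and 38.2% of those of the deposited rows. CHR-type matches lay in 22.2%, beside 17.4% and 13.3%. Of the 10 that rose, 9 had a promoter in the table, and 7 of these held a CCAAT box. These matches describe letters in the window and do not show binding.

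Markers of cell types were read beside these changes. Only genes that the authors called have rows, so the level of a marker without a row is unknown. A missing row does not show that a cell type was absent. Of all tested rows, 50.2% were called lower. Of 12 microglia markers 5 had rows, and all 5 fell (Cx3cr1 by 0.52, C1qa by 0.70, Fcrls by 0.45, Trem2 by 0.11 and Csf1r by 0.09), with a summed TPM of 428 to 458 in Ctrl and 369.9 to 388 in cKO. The defining markers P2ry12, Tmem119 and Sall1 had no row. Of 8 markers of border-associated macrophages 3 had rows and fell (Mrc1, Ms4a7 and Folr2), with a summed TPM of 49.9 to 62.0 in Ctrl and 27.4 to 32.0 in cKO. Of 7 monocyte markers 4 had rows, led by S100a4 at 2833 ± 74.9 TPM in Ctrl and 2349 ± 128 TPM in cKO (SD, n = 3). Astrocyte and endothelial markers had 1 row each, both under 1 TPM, and markers of lymphocytes, neutrophils, oligodendrocytes and neurons had none. Of the other monocyte markers Ms4a4c fell by 2.02 and Itgal rose by 0.29 on the log2 scale, and Ly6c2 was listed at 0 in Ctrl and at 0.55 to 0.71 TPM in cKO and was not tested. The part of these cell types in the decrease of the cell cycle genes was not tested.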

How the data were processed

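RNA sequencing of 3 Ctrl and 3 cKO libraries was read from 1 deposited table of 4656 mRNA rows. Bowtie2 2.4.5, DESeq2 1.34.0 and build mm39 are named in the submitters' processing notes; no counting tool is named there. Per the file headers, the table holds expected counts (11.1% of entries not whole), FPKM, TPM, and a normalized signal, which is each count raised to the next whole number over its library's size factor. The authors' log2 ratios, p-values and q-values were deposited beside them. The q-values matched a Benjamini-Hochberg adjustment over 15835 genes within 1e-06, and the authors' deposited table lists 2168 rows as higher and 2488 as lower in cKO.

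Expected counts were rounded and tested with edgeR 4.0.16 (quasi-likelihood F-test, TMM scaling, filterByExpr, which kept 4641 rows; R 4.3.3), with adjustment over 15835 genes and a threshold of 0.05. Levels are the authors' TPM and differences are log2 fold changes from that fit. The SE of a log2 fold change was derived as its absolute value over the square root of its F statistic. Alternatives were RLE, upper-quartile, authors' and library-size scaling, other filters, DESeq2 1.42.0, limma 3.58.1 (voom, and trend on log2(FPKM + 1)), the replicate number as a block, adjustment over the deposited rows alone, and each library left out. Named were Cdc20, Pcna, Mcm6, the MCM ring, the 6 largest changes per role and of the outside proliferation genes, the 8 largest increases, members that did not pass, and complexes described whole; 1 gene that this rule names is not reported here. Other genes given with values were chosen after their values were seen. Pseudogenes and exon overlaps came from GENCODE M21 on GRCm38; 19 members overlapped another protein-coding gene on the opposite strand. The members and lists were chosen with earlier results of these data known. The 8 columns of averages were not used.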

Additional observations from a re-analysis of the deposited data

How the results depend on the processing

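Values were recomputed under 17 alternatives. The 10 increases held their call under all of them, and the count of members called lower ranged from 50 (DESeq2) to 75 (the authors' size factors). The median log2 fold change of the members was -0.14 with RLE, -0.13 with upper-quartile scaling, -0.22 with the authors' size factors and -0.14 with DESeq2, against -0.17, and ran from -0.18 to -0.17 with 1 library left out. Over all rows DESeq2 called 1510 lower, against 2332, so that 58.9% of its calls were higher in cKO against 48.0%. Rad21, not called in the edgeR fit with TMM, turned above 0 (0.0136 with RLE, 0.0132 with DESeq2 and 0.0235 under upper-quartile scaling). With the authors' size factors, Rad21 and Smc1a gained a call as lower. TMM, RLE, upper-quartile and DESeq2 factors were estimated from the deposited rows alone, all of which the authors had already called. The cause of these shifts was not tested. With the replicate number as a block, 71 members were called lower and 10 higher; Hdac2 (adjusted p = 0.0631) and Ywhaz (adjusted p = 0.0663) were lost. Same-numbered libraries deviated together with r = 0.13, 0.01 and -0.06 across genes, so the numbers were not taken as pairs. Gadd45a and Pold4 rest on the average of 124 and 194 reads per library, which limits their precision.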

Other observations

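Mitotic genes that had rows without the pathway annotation mostly fell as well, and were chosen after their values were seen. Over the whole list of 57 mitotic genes 34 had rows, of which 28 fell, 4 rose and 2 did not pass. Trip13, a remodeller of spindle checkpoint proteins, had 56.3, 57.8 and 57.2 TPM in Ctrl and 41.2, 41.6 and 45 TPM in cKO, and fell by 0.41 ± 0.04 (SE, edgeR adjusted p = 1.0e-10). Bora, which helps to activate Plk1, fell by 0.31 and the kinases Aurka and Aurkb by 0.26 and 0.18. The increases without annotation were those of Ensa (0.22 ± 0.03, SE), an inhibitor of the phosphatase that opposes mitotic kinases, and Mau2 (0.19 ± 0.04, SE), a cohesin loader. Arpp19, the paralog of Ensa, was at -0.09 ± 0.03 (SE, edgeR adjusted p = 0.041). The CDK-binding proteins Cks1b and Cks2 fell by 0.17 and 0.29.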
